A study of Ovis aries with 9 samples.

Results

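The 10 genes described here encode enzymes of glycolysis and of its reversal in muscle: ENO1 and ENO3 (enolases), PGAM1 and PGAM2 (phosphoglycerate mutases), PFKM and PFKL (phosphofructokinases), LDHA and LDHB (lactate dehydrogenase subunits), GAPDH (glyceraldehyde-3-phosphate dehydrogenase) and FBP2 (muscle fructose bisphosphatase). They were found by gene name among 22605 loci, and where a name had several loci the one with the highest mean was kept. The muscle was the longissimus dorsi, which runs along the back, taken from unborn Chinese merino sheep. Each of 3 ages was represented by 3 libraries: gestation day 85 (D85), day 105 (D105) and day 135 (D135). Levels are in FPKM, which divides a locus's fragments by its transcript length and by the library's mapped fragments. No treatment, sex or genotype is named in the labels. Whether libraries of the same age are separate fetuses is not stated, so the spread behind each p-value may be technical.

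Glycolysis converts glucose to pyruvate, and lactate dehydrogenase exchanges pyruvate with lactate. Several steps have a form typical of skeletal muscle and a form used more widely. ENO3 is the beta-enolase of muscle and ENO1 the alpha-enolase of most tissues, PGAM2 is the muscle mutase and PGAM1 the general one, and PFKM is the muscle subunit of phosphofructokinase and PFKL the liver subunit. LDHA encodes the subunit that predominates in fast glycolytic muscle, while LDHB predominates in heart and oxidative fibres. GAPDH has a single main form in somatic tissues, and FBP2 catalyses the reverse of the phosphofructokinase step, used in making glycogen from lactate.

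Library totals ranged from 395797 to 489270 FPKM, and 4 loci without a gene name held 49.4% to 60.0% of them. Read numbers are unknown; from the steps between low values, relative depth was 0.993 to 1.20 with D85 replicate 1 set to 1, and the D135 libraries were deepest. Of 9 myofibre markers 8 were matched and none was at 0 in every library, with summed levels of 7473 to 9743 FPKM at D85, 9095 to 12373 at D105 and 17879 to 21763 at D135. D105 replicate 2 stood apart in fibroblast markers (10 of 10 matched), with a sum of 6745 FPKM where replicates 1 and 3 of that day had 2507 and 2544. In tendon and cartilage markers (7 of 8 matched) its sum was 332 FPKM against 15.2 and 19.8. All 10 genes were at 1 FPKM or more in all 9 libraries, so each entered the test (limma on log2(FPKM + 1), 13086 loci, two-sided, Benjamini-Hochberg adjustment over all of them, threshold 0.05). Changes on that scale understate those of low genes, FBP2 in particular.

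From D85 to D135 the muscle forms of enolase, phosphoglycerate mutase and phosphofructokinase rose together with LDHA, GAPDH and FBP2, while 4 members did not pass: ENO1, PGAM1, PFKL and LDHB. The largest ratios of day means were 11.4 for FBP2, 6.12 for PGAM2, 5.04 for GAPDH and 4.36 for ENO3. Those of LDHA and PFKM were 3.16 and 2.60. In all, 6 of 10 members were called higher and 0 lower at D135 against D85, where 46.6% of all tested loci were called, 6.90% higher and 39.7% lower. The libraries of both days did not overlap for those 6 members, as for 58.2% of tested loci (1233 of 13086 loci higher). After median-of-ratios scaling 9 members were called higher, with ENO1, PGAM1 and LDHB added, against 14.9% of loci. The median log2 change of the 10 members was 1.49, and that of all tested loci was -0.35. Bulk RNA cannot tell fewer cells of a type from less RNA per cell.

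For enolase the muscle form rose and the general form did not pass. ENO3 (MSTRG.5447) was at 108, 130.0 and 145 FPKM in the D85 libraries, at 207, 199 and 271 at D105, and at 429, 745 and 495 at D135. Every D105 library lay above every D85 library, and every D135 library above both earlier days. ENO3 rose from D105 to D135 by a log2 change of 1.27 ± 0.23 (SE, adjusted p = 0.00504) and from D85 to D135 by 2.09 ± 0.23 (adjusted p = 0.000423). ENO1 (MSTRG.6103) was at 29.5, 22.8 and 30.1 FPKM at D85, at 29.3, 25.5 and 31.0 at D105, and at 29.1, 28.4 and 35.6 at D135. The days overlapped for ENO1, and its log2 change from D85 to D135 was 0.17, with a 95% interval of -0.16 to 0.50 (adjusted p = 0.353). After median-of-ratios scaling this change was 0.63 and passed (adjusted p = 0.0229).

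The mutase pair followed the same pattern, with a larger rise of the muscle form. PGAM2 (MSTRG.8332) was at 155, 148 and 132 FPKM at D85, at 346, 245 and 368 at D105, and at 627, 1124 and 905 at D135. The 3 days did not overlap, and PGAM2 rose from D105 to D135 by a log2 change of 1.45 ± 0.24 (SE, adjusted p = 0.00372). PGAM1 (MSTRG.9431) was at 26.8, 23.5 and 25.5 FPKM at D85, at 24.2, 24.7 and 24.0 at D105, and at 21.3, 23.9 and 27.8 at D135. Its libraries overlapped in all comparisons, and the log2 change from D85 to D135 was -0.06, with a 95% interval of -0.31 to 0.19 (adjusted p = 0.682). After median-of-ratios scaling PGAM1 changed sign, to a log2 change of 0.40 (adjusted p = 0.0458). A second locus named PGAM2 (MSTRG.8331) was listed at 0 in D85 replicate 1 and D135 replicate 2 and reached 15.1 FPKM at most. A second PGAM1 locus (MSTRG.9432) was above 0 only in D85 replicate 3, at 5.41 FPKM.

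PFKM, for the enzyme of the committed step, had the smallest log2 change of the 6 members that rose from D85 to D135 (1.34). PFKM (MSTRG.2465) was at 42.3, 46.3 and 39.0 FPKM at D85, at 60.3, 52.6 and 76.9 at D105, and at 104, 135 and 92.4 at D135, without overlap between days. It rose from D105 to D135 by a log2 change of 0.79 ± 0.18 (SE, adjusted p = 0.0110). PFKL (MSTRG.972) was at 10.2, 8.46 and 9.52 FPKM at D85, at 12.9, 11.2 and 9.24 at D105, and at 8.44, 7.18 and 8.86 at D135. PFKL fell by 0.40 on the log2 scale from D105 to D135 (SE 0.14, adjusted p = 0.0494), a call that was lost in 15 of 21 alternatives, and its value was 0.019 after median-of-ratios scaling. D135 and D85 overlapped for PFKL (adjusted p = 0.305).

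**Figure D1:**
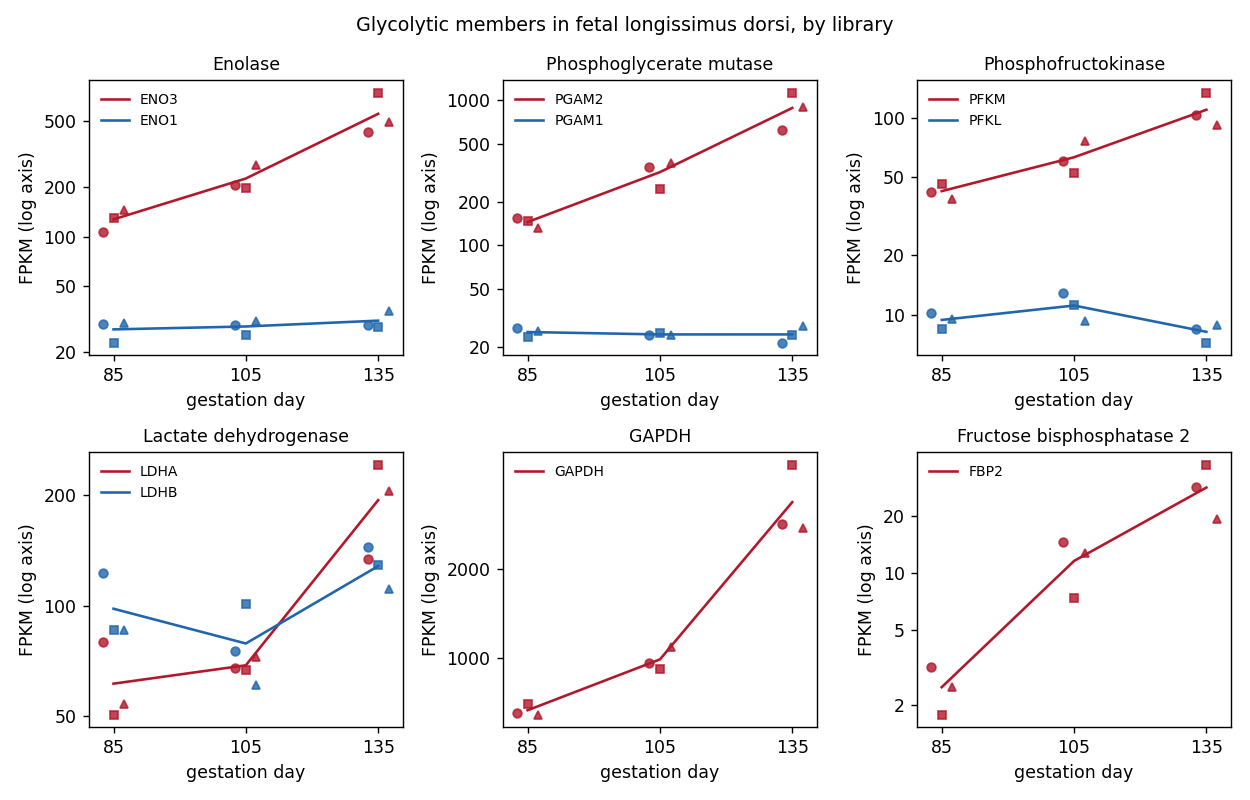
FPKM of the 10 members (y axis, log scale) by gestation day (x axis) in 9 libraries; circles, squares and triangles are replicates 1, 2 and 3, and lines join the day means. Red marks the muscle form of a pair, or GAPDH and FBP2, and blue the general form. ENO3 and PGAM2 climb from day to day while ENO1 and PGAM1 stay between 21.3 and 35.6 FPKM.

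Lactate dehydrogenase differed from the other pairs in that both subunits rose in the later interval, when libraries were not rescaled. After median-of-ratios scaling both mutases rose too, as PGAM1 then passed in limma (log2 change of 0.44, adjusted p = 0.0462). LDHA (MSTRG.9129) was at 79.5, 50.5 and 54.1 FPKM at D85, at 67.6, 66.6 and 72.3 at D105, and at 134, 242 and 206 at D135. The D85 and D105 libraries of LDHA overlapped, and those of D135 lay above both. LDHA rose from D105 to D135 by a log2 change of 1.44 ± 0.24 (SE, adjusted p = 0.00401). LDHB (MSTRG.2686) was at 122, 86.0 and 86.0 FPKM at D85, at 75.3, 101 and 60.7 at D105, and at 145, 129 and 111 at D135. LDHB rose from D105 to D135 by 0.72 ± 0.22 (SE, adjusted p = 0.0321), but D135 overlapped with D85 (adjusted p = 0.168). The LDHB call from D105 to D135 was lost after quantile normalization (adjusted p = 0.0563). It was also lost without D105 replicate 1, D105 replicate 3, D135 replicate 1 or D135 replicate 2 (adjusted p = 0.0794, 0.0910, 0.0900 and 0.0818).

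GAPDH, the enzyme that reduces NAD+ in glycolysis, was the most abundant of the 10. GAPDH (MSTRG.2772) was at 655, 703 and 645 FPKM at D85, at 962, 922 and 1089.5 at D105, and at 2839, 4494 and 2755 at D135. By day mean it was 35th of 22169 named loci at D85, 17th at D105 and 4th at D135. It rose from D105 to D135 by a log2 change of 1.73 ± 0.20 (SE, adjusted p = 0.00123) and from D85 to D135 by 2.29 ± 0.20 (adjusted p = 0.000206). FBP2 (MSTRG.1119) was the least abundant at D85, at 3.18, 1.78 and 2.51 FPKM. It was at 14.6, 7.34 and 12.8 FPKM at D105 and at 28.5, 37.5 and 19.2 at D135, with no overlap between days. FBP2 rose from D105 to D135 by 1.22 ± 0.31 (SE, adjusted p = 0.0162, or 0.0548 without D135 replicate 2) and from D85 to D135 by 3.05 ± 0.31 (adjusted p = 0.000312).

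The order of FPKM levels at D85 was GAPDH, PGAM2, ENO3, LDHB, LDHA, PFKM, ENO1, PGAM1, PFKL and FBP2. Neighbours in that order whose D85 libraries overlapped were PGAM2 and ENO3, ENO3 and LDHB, and ENO1 and PGAM1; the others did not overlap. At D135 the order was GAPDH, PGAM2, ENO3, LDHA, LDHB, PFKM, ENO1, FBP2, PGAM1 and PFKL. LDHA (194 ± 55.0 FPKM; SD, n = 3) had moved above LDHB (128 ± 16.7), although D135 replicate 1 had the opposite order. FBP2 (28.4 ± 9.11) overlapped with both ENO1 (31.0 ± 3.99) and PGAM1 (24.3 ± 3.25), and PFKL was lowest (8.16 ± 0.876). The D135 libraries of PGAM2 and ENO3 also overlapped, as did those of LDHB and PFKM.

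A ratio of both forms within a library does not change when all its loci are scaled by a common factor. Quantile normalization is not such a scaling, and the ratios were not tested after it. The ENO3/ENO1 ratio of FPKM was 3.65, 5.71 and 4.82 in the D85 libraries, 7.07, 7.79 and 8.74 at D105, and 14.8, 26.2 and 13.9 at D135. The PGAM2/PGAM1 ratio was 5.80, 6.28 and 5.15 at D85, 14.3, 9.90 and 15.3 at D105, and 29.4, 47.0 and 32.6 at D135. For both ratios the 3 days followed each other without overlap. The PFKM/PFKL ratio was 4.16, 5.47 and 4.09 at D85, 4.68, 4.69 and 8.32 at D105, and 12.4, 18.8 and 10.4 at D135. Here D85 and D105 overlapped and D135 lay above both. The LDHA/LDHB ratio was 0.649, 0.587 and 0.629 at D85, 0.897, 0.661 and 1.19 at D105, and 0.927, 1.88 and 1.85 at D135. LDHB exceeded LDHA in all D85 libraries and LDHA exceeded LDHB in 2 of 3 D135 libraries, with D105 overlapping D135.

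The 4 ratios were tested over the 3 days with an exact permutation test of the F statistic of the log2 ratio, over all assignments of libraries to days. For ENO3/ENO1 and for PGAM2/PGAM1 the exact p was 0.00357, the smallest this design can give (0.00714 adjusted over the 4 ratios). For PFKM/PFKL the exact p was 0.0179 (adjusted 0.0238) and for LDHA/LDHB 0.0393 (adjusted 0.0393). From D85 to D135 the geometric means rose 3.77-fold for ENO3/ENO1, 6.22-fold for PGAM2/PGAM1, 2.96-fold for PFKM/PFKL and 2.38-fold for LDHA/LDHB. Pairs of days were not tested, since 3 libraries against 3 cannot go below an exact p of 0.1. The ratios were chosen with results of these data known. With 1 library left out, the adjusted p for LDHA/LDHB reached 0.111 without D135 replicate 2 or 3, and it exceeded the threshold in 7 of 9 such fits. That for PFKM/PFKL reached 0.0714 without D135 replicate 2 and 0.0536 without D135 replicate 1.

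**Figure D2:**
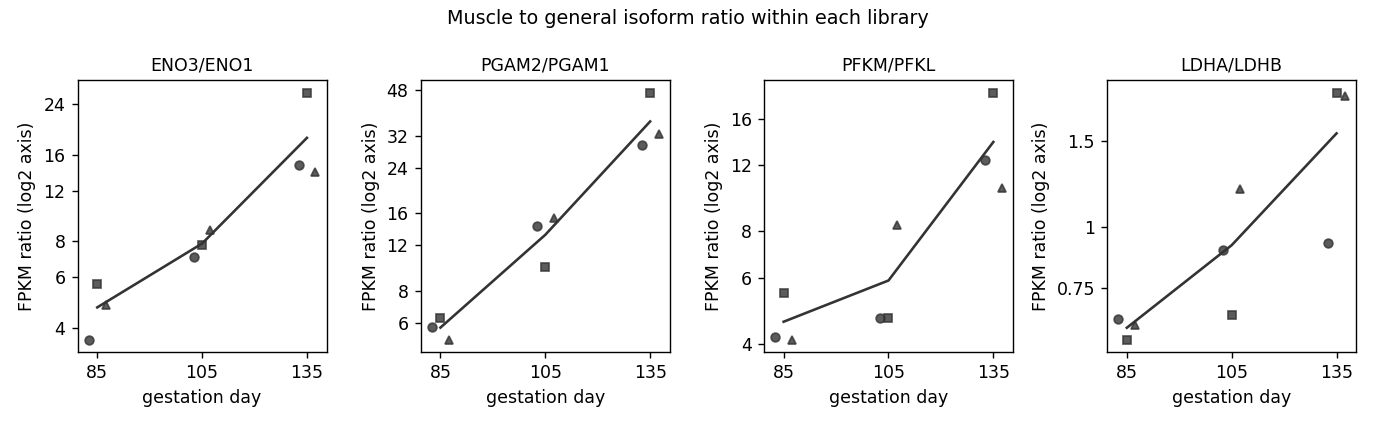
Ratio of muscle to general form (FPKM over FPKM, y axis, log2 scale) in each library by gestation day (x axis); circles, squares and triangles are replicates 1, 2 and 3, and lines join the day means. ENO3/ENO1 and PGAM2/PGAM1 step up without overlap, whereas a D135 library of LDHA/LDHB, at 0.927, lies within the D105 range.

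As a share of the summed FPKM of the forms of each enzyme, the muscle form already predominated at D85 for 3 of the 4 enzymes. ENO3 made up 82.0 ± 3.33% of ENO1, ENO2 and ENO3 at D85, 88.6 ± 1.10% at D105 and 94.4 ± 1.67% at D135 (SD, n = 3). PGAM2 made up 85.1 ± 1.28%, 92.7 ± 1.66% and 97.2 ± 0.624% of both mutases. PFKM made up 78.6 ± 2.60%, 80.5 ± 5.94% and 90.1 ± 2.90% of PFKM, PFKL and PFKP, the platelet subunit. LDHA made up 38.3 ± 1.20%, 47.2 ± 7.30% and 59.4 ± 9.81% of LDHA and LDHB. The neuronal enolase ENO2 averaged 0.161 FPKM over all libraries.

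Over the earlier interval, D85 to D105, no member passed: 0 of 10 were called by limma, where 0.199% of all tested loci were called (0.145% higher and 0.0535% lower). At an unadjusted p under 0.05 there were 5 of 10 members (ENO3, PGAM2, PFKM, GAPDH and FBP2), where 12.3% of all tested loci were below that value. For the same 5 members the libraries of both days did not overlap, as for 18.4% of tested loci, and D105 was the higher day (1047 of 13086 loci). FBP2 came closest, with a log2 change of 1.82 ± 0.31 (SE, adjusted p = 0.0805), followed by PGAM2 with 1.12 ± 0.24 (adjusted p = 0.134). ENO3 had 0.81 ± 0.23 (adjusted p = 0.211). LDHA had 0.19, with a 95% interval of -0.36 to 0.74, and LDHB -0.32, with an interval of -0.82 to 0.18.

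Over the later interval, D105 to D135, 7 of 10 members were called higher and 1 lower, where 39.5% of all tested loci were called, 4.47% higher and 35.0% lower. The libraries of those 8 members did not overlap between the days, as for 54.1% of tested loci (842 of 13086 higher). ENO1 and PGAM1 were the members that did not pass (log2 changes of 0.11 and -0.01; PGAM1 was at 0.44 after median-of-ratios scaling). The count was 8 higher and 0 lower after median-of-ratios scaling, when PGAM1 passed and PFKL did not, against 10.6% of loci higher. After quantile normalization it was 6 higher and 0 lower, without LDHB and PFKL, against 7.53% of loci higher. Without D135 replicate 2 it was 5 higher and 0 lower, with LDHB, FBP2 and PFKL no longer passing (3.22% of loci higher). ENO3, PGAM2, PFKM, GAPDH and FBP2 increased in both steps without overlap between any days, which 1.54% of tested loci did. Both intervals use the D105 libraries, so their changes are not independent.

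**Figure D3:**
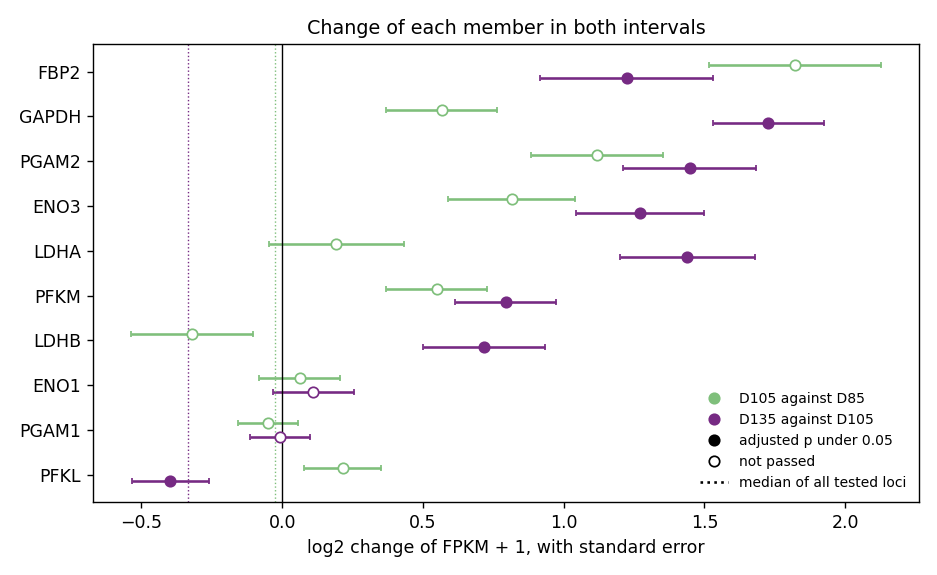
Log2 change of FPKM + 1 (x axis) of each member (y axis) from D85 to D105 in green and from D105 to D135 in purple, with standard errors; filled points passed an adjusted p of 0.05 and dotted lines mark the median of all tested loci. No green point is filled, while GAPDH (1.73) and PGAM2 (1.45) lead the purple ones.

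Among the D135 libraries, replicate 2 had the highest value of 6 members (ENO3, PGAM2, PFKM, LDHA, GAPDH and FBP2), D135 replicate 3 that of ENO1, PGAM1 and PFKL, and D135 replicate 1 that of LDHB. Fast fibre markers (7 of 10 matched, none at 0 in every library) summed to 6349.7, 8974 and 7094 FPKM in D135 replicates 1, 2 and 3. Slow fibre markers (10 of 10 matched, likewise) summed to 8154, 3657 and 6342 FPKM. Replicate 1, with the highest slow sum and the lowest fast sum, had the lowest LDHA/LDHB ratio of that day. Replicate 2 had the lowest slow sum, the highest fast sum and the highest ratio (1.88, near the 1.85 of replicate 3). The ratio of fast to slow sums was higher at D85 (2.73 to 3.94) than at D135 (0.779 to 2.45). TNNC2 and TNNI2 held most of the fast sum (means of 1860.5 and 948 FPKM at D85) and rose 1.47- and 2.35-fold to D135. The other matched fast markers rose more, from 4.29-fold for ATP2A1 to 33.1-fold for ACTN3. From D85 to D135, 7 of 7 fast and 7 of 10 slow markers were called higher and 0 lower, where 6.90% of tested loci rose. The LDHA/LDHB ratio was lower at D85 (0.587 to 0.649, against 0.927 to 1.88). Within D105 the fast to slow and LDHA/LDHB ratios had the same order of replicates. Within D85, replicate 1 had the lowest fast to slow ratio and the highest LDHA/LDHB ratio. At D85 the fast sum was 2838 to 3321 FPKM and the slow sum 843 to 1175, and at D105 they were 3619.5 to 4716 and 756 to 1305. The part of fibre composition in these results was not tested.

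Other marker lists were followed as well. Cell cycle markers (12 of 12 matched, none at 0 in every library) summed to 101 to 121 FPKM at D85, 88.2 to 97.3 at D105 and 22.5 to 32.0 at D135. All 12 fell from D105 to D135, where 35.0% of all tested loci fell. Endothelial markers (9 of 10 matched, likewise) summed to 167 to 199, 258 to 268 and 186 to 234 FPKM, so that D85 and D135 overlapped. From D85 to D135, 4 of the 9 rose and 0 fell, where 6.90% of all tested loci rose. From D105 to D135, 0 of them rose and 2 fell, where 35.0% of loci fell. Adipocyte markers (8 of 8 matched, likewise) summed to 5.33 to 16.7 FPKM at D85 and overlapped on all days. Their sum was 84.7 FPKM in D105 replicate 2 against 11.2 and 11.6 in replicates 1 and 3, and 67.5 in D135 replicate 2, the library with the highest value of 6 members, against 18.0 and 11.7. Of 6 adipocyte markers tested, 2 rose from D85 to D135, where 6.90% of all tested loci rose. The part of these cell types in the members' levels was not tested. Without D105 replicate 2, 7 members were called higher and 0 lower from D105 to D135 (4.30% of all loci higher), and 6 higher and 0 lower from D85 to D135 (7.20% higher).

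The genes whose log2(FPKM + 1) followed a member most closely over the 9 libraries (Pearson's r, loci with a symbol and a mean of at least 10 FPKM) differed between forms. For ENO3 they were ATP2A1, the calcium pump of fast fibres (r = 0.993), CASQ1, calsequestrin of fast fibres (0.980), and GAPDH (0.976). For PGAM2 they were ENO3 (0.976), CASQ1 (0.975) and PYGM, muscle glycogen phosphorylase (0.973). LDHA was nearest to mitochondrial genes: ATP5A1 and ATP5C1, subunits of ATP synthase (0.975 and 0.969), and COX5A, of cytochrome oxidase (0.973). LDHB was nearest to MRPL39, of the mitochondrial ribosome (0.925), GSTK1 (0.919) and PSMB6, of the proteasome (0.890). For ENO1 the nearest 3 included NDUFA2 (0.815) and PRKAR2A (0.798), and PGAM1 was nearest to CAMK2D (0.824), SH3GLB1 (0.821) and SMYD3 (0.820). These are descriptions over libraries that share days and scaling. Between ENO3 and ENO1 r was 0.417, between PGAM2 and PGAM1 -0.142, and between LDHA and LDHB 0.634.

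Among the other glycolytic enzymes, 12 of 23 listed were tested. From D85 to D135, 5 rose, 3 fell and 4 did not pass, where 6.90% of all tested loci rose and 39.7% fell. The list median was 0.42 beside -0.35 for all tested loci. ALDOA, the muscle aldolase, was at 117, 239.5 and 254 FPKM at D85, at 329, 313 and 359 at D105, and at 633, 1237 and 821 at D135. It rose 2.16 on the log2 scale from D85 to D135 (adjusted p = 0.00167), at a locus that also carries a locus-number name. TPI1, triosephosphate isomerase, rose from 146 ± 76.3 to 505 ± 107 FPKM (SD, n = 3) and GPI, glucose phosphate isomerase, from 29.6 ± 6.55 to 46.7 ± 3.78. PGK1, phosphoglycerate kinase, rose from 39.3 ± 9.84 to 73.5 ± 25.6 FPKM (adjusted p = 0.0417), a call lost in 9 of 21 alternatives. The PKM locus, pyruvate kinase, rose from 38.3 ± 2.02 to 60.7 ± 15.7 FPKM (adjusted p = 0.0236; lost in 4 of 21 alternatives). It was matched by its transcripts to RefSeq and is described in the table as PARP6, so its reads may include an overlapping gene.

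The 3 enzymes that fell were at low levels: ADPGK, an ADP-dependent glucokinase, from 3.99 ± 0.655 to 2.19 ± 0.667 FPKM, ALDOC, the brain aldolase, from 1.26 ± 0.273 to 0.496 ± 0.0537, and HK3, a hexokinase, from 1.07 ± 0.201 to 0.520 ± 0.0432. After median-of-ratios scaling the count was 6 higher and 1 lower (14.9% of loci higher). It was 6 and 0 after quantile normalization (12.2% higher) and 3 and 2 without D135 replicate 2 (5.61% higher). HK1 and HK2, hexokinases of the first step, did not pass, at 4.67 and 2.31 FPKM at D85 and 4.29 and 3.15 at D135. From D105 to D135, 3 of the 12 were called higher, 3 lower and 6 did not pass. Among all tested loci, 4.47% were called higher and 35.0% lower in that interval. With median-of-ratios scaling the calls were 5 higher and 0 lower, against 10.6% of loci higher. From D85 to D105 none passed.

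**Figure D4:**
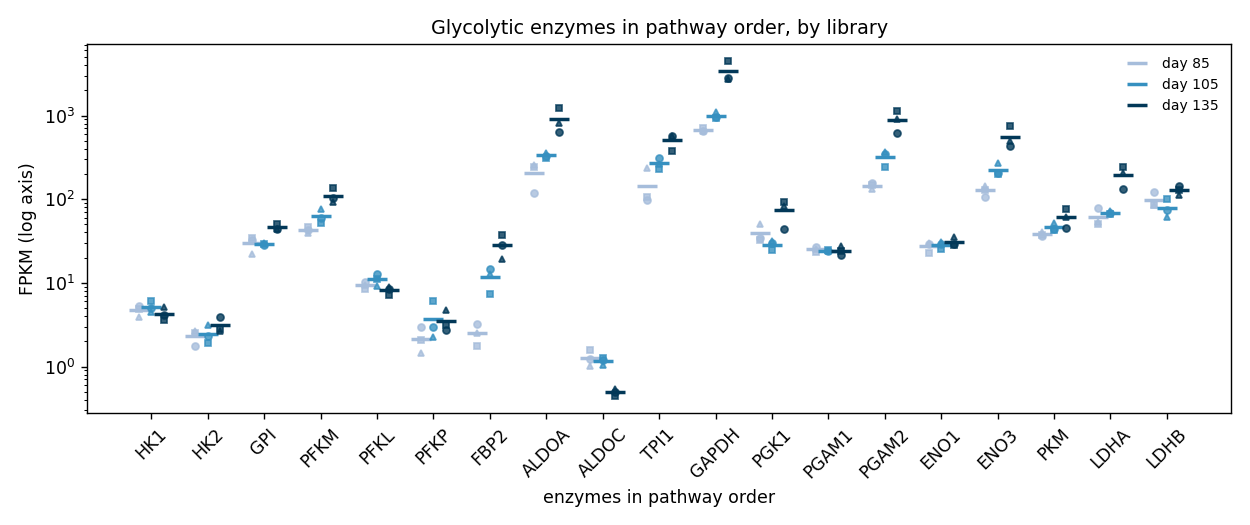
FPKM (y axis, log scale) of 19 enzymes in pathway order (x axis); shades of blue mark days 85, 105 and 135, symbols the 3 replicates, and bars the day means. The enzymes ALDOA, GAPDH, PGAM2 and ENO3 reach day means of 556 to 3363 FPKM at D135, while PGK1 between them reaches 73.5.

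Of the 5 enzymes that set or remove fructose 2,6-bisphosphate, the activator of phosphofructokinase, 4 were tested. From D85 to D135 1 rose, 1 fell and 2 did not pass, where 6.90% of all tested loci rose and 39.7% fell. PFKFB4 rose from 1.37 ± 0.599 to 4.03 ± 0.976 FPKM (SD, n = 3; adjusted p = 0.00515) and TIGAR, which degrades this activator, fell from 2.76 ± 0.761 to 1.29 ± 0.545 (adjusted p = 0.0230). The TIGAR call was lost in 7 of 20 alternatives, median-of-ratios scaling among them. The PFKFB3 locus, which also carries the name RBM17 so that reads of both genes cannot be told apart, was at 4.70 ± 0.200 and 4.48 ± 0.745 FPKM and did not pass.

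Of 10 genes for transfer of lactate, pyruvate and glycerol phosphate, 9 were tested. From D85 to D135 5 rose, 0 fell and 4 did not pass (6.90% of all tested loci rose), with a list median of 0.95. After median-of-ratios scaling the split was 8 and 0, against 14.9% of loci higher. SLC16A3, the lactate exporter MCT4 of glycolytic muscle, was at 1.19 ± 0.180 FPKM at D85, 0.898 ± 0.157 at D105 and 3.50 ± 0.880 at D135 (adjusted p = 0.00159 for D85 to D135). MPC1 and MPC2, which form the mitochondrial pyruvate carrier, rose from 12.7 ± 2.18 to 31.0 ± 1.19 and from 7.37 ± 0.759 to 18.2 ± 0.993 FPKM. The locus of GPD1, the cytosolic glycerol phosphate dehydrogenase, rose from 5.84 ± 0.933 to 13.5 ± 2.01 FPKM. It is also named SMARCD1 and by a locus number, so this rise cannot be assigned to GPD1 alone. SLC16A7, a monocarboxylate carrier, rose from 0.672 ± 0.0547 to 1.76 ± 0.647 (lost in 7 of 20 alternatives). BSG, the partner protein of these carriers, was at 55.8 ± 25.3 and 101 ± 10.2 FPKM and did not pass (adjusted p = 0.0542), although it passed in 7 of 21 alternatives.

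Of 18 regulators of glycolytic genes, 15 were tested and from D85 to D135 2 rose, 4 fell and 9 did not pass, with a list median of -0.16. The falls were a smaller share than the 39.7% of all tested loci that fell, and 6.90% of loci rose. After median-of-ratios scaling the split was 5 higher and 0 lower (14.9% of loci higher). It was 4 and 0 after quantile normalization (12.2% higher) and 1 and 1 without D135 replicate 2 (5.61% higher). ESRRA, a nuclear receptor of energy metabolism, rose from 2.10 ± 0.401 to 3.91 ± 0.197 FPKM (SD, n = 3) and EPAS1, a hypoxia-inducible factor, from 8.46 ± 0.551 to 15.7 ± 5.50. The genes that fell were MEF2C (17.0 ± 3.21 to 8.54 ± 3.69), MYOD1 (7.12 ± 1.47 to 3.62 ± 0.412), MYC (6.13 ± 0.258 to 2.98 ± 1.31) and EYA4, a transcriptional cofactor (14.1 ± 1.94 to 7.89 ± 3.28 FPKM). All 4 calls were lost under both median-of-ratios and quantile scaling, and EPAS1 was lost in 7 of 21 alternatives. HIF1A, the other hypoxia-inducible factor, was at 13.2 and 11.2 FPKM at D85 and D135.

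GAPDH is widely used as a reference for expression, so it was set beside 15 other genes used that way. From D85 to D135, 4 of the 15 rose, 5 fell and 6 did not pass, where 6.90% of all tested loci rose and 39.7% fell. The list median was -0.15. The split was 4 and 2 after median-of-ratios scaling (14.9% of loci higher, 1642 of 13086 lower). It was 3 and 5 with quantiles (12.2% higher, 1943 of 13086 lower). When a library was left out, 2 to 3 were higher and 3 to 6 lower. TFRC, B2M, SDHA and PGK1 rose, by log2 changes of 1.39, 1.09, 1.04 and 0.84. The B2M call was lost in 5 of 21 alternatives, quantile normalization among them, and the PGK1 call in 9 of 21. PPIB, PPIA, YWHAZ, TBP and RPS18 fell, by 1.38, 1.25, 1.10, 0.37 and 0.36 on the log2 scale, and RPS18 was at 0.12 after median-of-ratios scaling. The TBP and RPS18 calls were lost in 11 and 12 of 21 alternatives, and TBP was at -0.04 under both median-of-ratios and quantile scaling. RPLP0 and HPRT1 were among those that did not pass, at log2 changes of -0.06 and -0.14. The mean log2 ratio of GAPDH to each of the 15 genes was higher at D135 than at D85. The difference was 0.70 for TFRC at the least and 3.69 for PPIB at the most. For GAPDH over TFRC the libraries of D85 and D135 overlapped.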

How the data were processed

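The authors deposited one table of FPKM per locus and library, per the file headers; the submitters' processing notes name cutadapt, Bowtie2 and TopHat2 without versions or order. Genome build and counting tool were not given in the sources used here, so no coordinates are printed. The design text names a pair of sequencer models without assigning libraries to them, so a batch could not be tested. Since the table gives FPKM alone, no count model was used. Loci entered the test when 3 or more libraries reached FPKM 1. The model, limma 3.58.1 in R 4.3.3 (trended eBayes) on log2(FPKM + 1), held all 9 libraries; p-values were two-sided and adjusted by Benjamini-Hochberg over 13086 loci, with a threshold of 0.05. On simulated data for D135 against D105 (13086 genes) limma found 71% of 100 genes given a log2 shift of 1 and 97% of 100 given a shift of 2, and made 9 false calls. The shifted genes had a mean log2(FPKM + 1) above 2, left out the noisiest loci and moved up and down equally often, with independent noise. In the data 5164 loci were called and 4579 of them were lower, so these rates need not hold there. Ratios were tested by exact permutation in Python 3.11.15 (numpy 2.4.6, pandas 2.3.3; figures with matplotlib 3.10.9). The members, ratios and gene lists were chosen with earlier results of these data known. Named were all members, up to 8 called genes per list and direction and the 2 highest of each list, and the 3 nearest patterns of 6 members; HK1, HK2, HIF1A, HPRT1, PFKP and ENO2 were added after their values were seen. Some genes that the rule takes are not reported here. List genes were matched by name, or by RefSeq transcript (ARS-UI_Ramb_v3.0, names alone). Alternatives changed the pseudocount, filter, scaling, variance model, library weights, libraries fitted, a replicate block and the locus per name; totals without the 4 highest loci were added after the data were seen.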

Additional observations from a re-analysis of the deposited data

How the results depend on the processing

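In 21 alternatives, 605 of 630 log2 changes of the members kept their side of the threshold, 20 lost and 2 gained a call, and 3 reversed. A reversal was counted only where a call was involved, and these came with median-of-ratios scaling: PGAM1 at 0.44 (D135 against D105) and 0.40 (D135 against D85), and PFKL at 0.019 (D135 against D105). With or without a call, PGAM1 changed sign in 7 (D135 against D105) and 4 (D135 against D85) alternatives, PFKL in 2 (D135 against D85) and ENO1 in 1 (D105 against D85). RPS18 reversed with median-of-ratios scaling too, to 0.12 (D135 against D85). For the other named genes, 1811 of 1989 values kept their side. The members called from D105 to D135 ranged from 5 to 7 with a library left out (5 without D135 replicate 2). Loci called from D85 to D105 (26) were 45 without a filter, 17 with only the libraries of the days compared, 8 with a replicate block and 14 to 27 with a library left out. From D105 to D135 (5164, 585 higher) they were 2300 (1389 higher) after median-of-ratios scaling, 2058 (986 higher) after quantile normalization and 3416 to 5091 with a library left out. From D85 to D135 (6097, 903 higher) they were 3594 (1952 higher) and 3542 (1599 higher), and 4707 to 6141 with a library left out. The cause was not tested. With the replicate block, the log2 PFKM/PFKL difference of D135 and D85 stayed at 1.57 with an adjusted exact p of 0.0833. With a library left out that difference was 1.33 to 1.75 for PFKM/PFKL and 1.08 to 1.59 for LDHA/LDHB. Deviations from the day means were no more alike in same-numbered libraries (r of -0.07 to 0.06) than in differently numbered ones (-0.09 to 0.05). This cannot tell whether same-numbered libraries share an origin or a batch. Depth in reads is unknown and limits low genes such as FBP2 at D85. Pseudocounts of 0.1 and 0.5, library weights and the variance model changed no member's call except PFKL, which was lost without a trend (adjusted p = 0.0534).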

Other observations

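Some relations between neighbouring steps were not part of any planned comparison and were chosen after their values were seen, so the ratios are given without a test. FBP2 works against PFKM, and the FBP2/PFKM ratio of FPKM was 0.0751, 0.0384 and 0.0643 in the D85 libraries, 0.242, 0.139 and 0.167 at D105, and 0.273, 0.278 and 0.208 at D135. All D105 and D135 libraries lay above those of D85, and D105 overlapped with D135.

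PGK1, the kinase between GAPDH and phosphoglycerate mutase, was at 34.4, 33.0 and 50.7 FPKM at D85, at 30.2, 24.6 and 31.4 at D105, and at 44.3, 92.3 and 83.8 at D135. Every D105 library was below every D85 library, while GAPDH and PGAM2 were above. In limma the PGK1 difference of those days did not pass (log2 change of -0.42, adjusted p = 0.598). The GAPDH/PGK1 ratio had day means of 17.7 ± 4.45, 34.7 ± 2.84 and 48.5 ± 15.6 (SD, n = 3). The PGAM2/PGK1 ratio had 3.86 ± 1.10, 11.1 ± 0.960 and 12.4 ± 1.68. PGAM2 and ENO3, the next steps, kept closer levels, with a PGAM2/ENO3 ratio of 1.16 ± 0.268, 1.42 ± 0.226 and 1.60 ± 0.199.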
